A study of Mus musculus with 3 samples.

Results

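The genes described here are 10 transcription factor genes that steer myeloid progenitors toward granulocytes or monocytes: the C/EBP family genes Cebpa, Cebpb, Cebpd, Cebpe and Cebpg, the repressor gene Gfi1, the ETS gene Spi1 (which encodes PU.1), the interferon regulatory factor genes Irf8 and Irf4, and Klf4. They were chosen by name, with no measured value in the rule, but earlier results of these data were known. They are 10 of the 16742 genes listed in at least 1 of the 3 libraries. All 10 were listed in control, and 9 were listed in each of TR1 and TR9, where Irf4 was absent from the list and taken as 0.

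TBLR1-RARα (TR) is a fusion protein of acute promyelocytic leukemia (APL), in which promyelocytes accumulate. RNA-seq was performed on 3 libraries, 1 per group, each from bone marrow cells pooled from 3 mice of C57BL/6 background aged 6 to 8 weeks. The control library held lin- cells of healthy wild type mice, which are the cells left after depletion of those with mature lineage markers. The TR1 and TR9 libraries held sorted GFP+ cells of TBLR1-RARa mice, named after 2 primary leukemic mice, in the third generation of serial transplantation. TR and GFP were expressed from the same retroviral vector in lin- marrow cells, so expression was not restricted to a lineage. The recipients of the serial transplants were not irradiated and kept their own marrow, and host cells would be GFP-negative. Cells carrying the empty vector were not analysed here, so the vector, the transplantation and the GFP sort cannot be told apart from the fusion. Depletion of cells with mature lineage markers is described for the control library alone, so it cannot be told apart from the fusion either. TR1 and TR9 each descend from a single primary leukemia and are not replicates of a condition.

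In normal marrow C/EBPα and PU.1 open the myeloid program. C/EBPε is needed for the later steps of granulocyte maturation, while C/EBPβ and C/EBPδ act in stress-induced and maturing myeloid cells and C/EBPγ, which lacks a transactivation domain, pairs with the others. GFI1 is a zinc finger repressor that shuts off monocyte genes in cells taking the neutrophil path. IRF8 drives monocyte and dendritic cell fates and restrains granulocyte production, IRF4 acts beside it in dendritic and lymphoid cells, and KLF4 is a zinc finger factor of monocyte differentiation. Bulk RNA cannot tell a lower level per cell from fewer cells that express the gene.

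Expression was given as an expected count, the estimate by RSEM of the fragments from a gene, and as FPKM, which divides it by transcript length and library total. The control library held 5488778 expected counts, TR1 held 5571409 and TR9 held 5129662. A gene was called higher or lower when an exact Poisson test of the rounded counts of 2 libraries had a false discovery rate (FDR) of at most 0.001 over all genes listed in either library and the log2 ratio of FPKM was at least 1 in size. With 1 library per group this test compares libraries, not conditions, and the 95% exact intervals cover counting error only. The libraries also differed in other cells. Summed FPKM of 7 erythroid markers was 2088 in control but 39.86 in TR1 and 38.53 in TR9, and that of 10 marrow stroma markers was 728.2, 9.46 and 11.09. Of the stroma markers, 8 were called lower in TR1 and 1, Lepr, was called higher, and in TR9 8 were lower and 0 higher. The 8 mast cell and basophil markers summed to 1009, 87.44 and 90.44, and the 8 progenitor markers to 195.2, 100.8 and 163.4. Of the progenitor markers, 2 were called higher and 5 lower in TR1, and 1 higher and 3 lower in TR9. Cd34 had 1039, 83 and 57 expected counts, whereas Ly6a had 50.02, 145.33 and 434.33. The sum of 11 neutrophil markers was 4205, 42110 and 29241. Their part in the results was not tested. The mouse gene Rara rose from 58.88 expected counts in control to 1167.89 in TR1 and 358.74 in TR9, both called higher. The fusion was expressed from a cloned cDNA, and whether its reads were counted under Rara is not given in the sources used here.

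Promoter windows were searched for motifs of C/EBP, PU.1, GFI1 and IRF factors and for direct repeats bound by retinoic acid receptors. No KLF4 motif was searched. Windows that held a match are shown. The RefSeq promoter table (GRCm38.p6) held 9 windows of 300 bases for 7 of the 10 genes, each reaching from 250 bases before to 50 bases after a transcription start. Cebpd, Cebpe and Spi1 had no entry. Of the 9 windows, 3 held a match, in capitals, and these are printed here, read 5′ to 3′ on the strand of the gene.
Gfi1, chr5:107725756-107726055, minus strand, C/EBP motif in capitals: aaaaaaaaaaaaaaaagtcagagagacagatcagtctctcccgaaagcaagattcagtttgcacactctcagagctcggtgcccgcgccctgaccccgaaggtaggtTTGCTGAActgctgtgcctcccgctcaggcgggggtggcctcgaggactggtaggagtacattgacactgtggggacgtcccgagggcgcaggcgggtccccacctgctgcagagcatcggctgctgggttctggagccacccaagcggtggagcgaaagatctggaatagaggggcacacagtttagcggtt
Irf8, chr8:120736108-120736407, plus strand, GFI1 motif on the opposite strand in capitals: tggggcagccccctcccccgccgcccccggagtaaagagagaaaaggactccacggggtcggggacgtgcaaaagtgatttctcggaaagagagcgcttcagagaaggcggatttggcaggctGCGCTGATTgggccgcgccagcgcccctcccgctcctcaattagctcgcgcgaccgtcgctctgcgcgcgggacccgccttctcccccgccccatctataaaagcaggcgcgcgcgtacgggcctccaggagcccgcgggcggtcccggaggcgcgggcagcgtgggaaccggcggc
Irf4, chr13:30748983-30749282, plus strand, PU.1 motif on the opposite strand in capitals: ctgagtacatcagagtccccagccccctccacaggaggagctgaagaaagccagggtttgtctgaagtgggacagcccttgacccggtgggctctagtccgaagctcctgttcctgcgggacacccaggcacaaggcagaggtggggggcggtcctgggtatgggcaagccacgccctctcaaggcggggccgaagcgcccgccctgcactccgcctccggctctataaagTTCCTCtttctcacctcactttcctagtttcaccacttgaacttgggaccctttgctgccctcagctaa
The printed Gfi1 window held the C/EBP motif TTGCNNAA from 143 to 136 bases before its RefSeq start. That motif was found in 10.8% of the 32851 windows of the table. The start of this window and the matched bases lie within Gfi1 by the gene coordinates given below. Another Gfi1 window held no match. The printed Irf8 window held the GFI1 motif AATCNNNGC from 127 to 119 bases before the start, found in 10.3% of all windows. Another Irf8 window held no match. The Irf4 window held the PU.1 motif GAGGAA from 19 to 14 bases before the start, found in 28.3% of all windows. Both strands were searched, and overlap with another motif was allowed. The other motifs gave no match in the 9 windows. These were the IRF repeat (3.44% of all windows), the ETS and IRF composite element (2.72%), and the wider and the narrower direct repeat bound by retinoic acid receptors (0.100% and 0.067%). Such matches describe letters, and binding was not measured.

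Against control, 5 of the 10 genes were higher in TR1 and 3 were lower, and 6 were higher and 2 lower in TR9. Cebpa, Cebpb, Cebpd, Cebpe and Gfi1 were higher in both, Irf4 and Klf4 were lower in both, Irf8 was lower in TR1, and Spi1 was higher in TR9. Cebpg did not pass in either. Of all genes tested, 8.09% were called higher and 13.0% lower in TR1, and 9.37% were called higher and 10.8% lower in TR9. The median log2 ratio of the 10 genes was 1.04 in TR1 and 2.10 in TR9, beside −0.29 and −0.12 over all genes. TMM scaling from edgeR, which levels the bulk of the genes, moved the median of all genes to −0.05 in TR1 and −0.01 in TR9. The comparisons of TR1 and of TR9 with control share the control library, so they are given side by side.

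**Figure D1:**
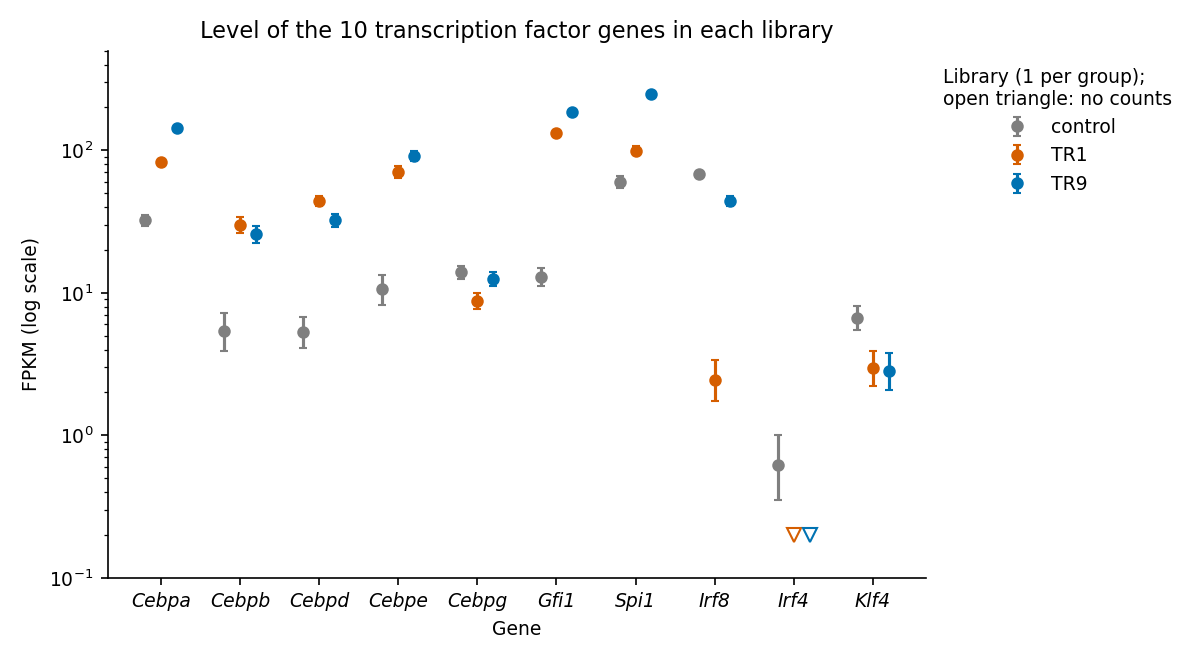
FPKM (log axis) of each of the 10 genes in the control, TR1 and TR9 libraries, 1 library per group. Points are the deposited values, bars are 95% exact intervals of the count, and open triangles mark Irf4, which had no counts in TR1 and TR9. Gfi1 and 4 of the 5 C/EBP genes sat above control in both TR libraries, while Irf8 was at 67.96 FPKM in control, 2.46 in TR1 and 44.16 in TR9.

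Cebpa, the founding factor of the granulocyte and monocyte lineages (chr7:35119293-35121928, GRCm38, plus strand, GENCODE M21), was at 32.22 FPKM in control, 82.56 in TR1 and 142.46 in TR9. These levels rest on 470, 1226 and 1945 expected counts. Cebpa was 2.56-fold higher in TR1 (log2 ratio 1.36, interval 1.20 to 1.51) and 4.42-fold higher in TR9 (2.14, interval 2.0 to 2.29). TR9 was the highest of the 3 libraries, but the log2 ratio of TR9 to TR1, 0.79 (interval 0.68 to 0.89), was under the size required for a call.

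Cebpe, the C/EBP gene of late granulocyte maturation (chr14:54710360-54712174, minus strand), was at 10.59 FPKM in control, 70.61 in TR1 and 90.99 in TR9. Cebpe was 6.67-fold higher in TR1 (log2 ratio 2.74, interval 2.38 to 3.12) and 8.59-fold higher in TR9 (3.10, interval 2.75 to 3.48). Both TR libraries were far above control and close to each other, with a log2 ratio of TR9 to TR1 of 0.37 (interval 0.19 to 0.54) that was not called.

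Cebpb and Cebpd, whose products rise in emergency and maturing myeloid cells, were low in control and higher in both leukemias. Cebpb (chr2:167688915-167690418, plus strand) was at 5.36 FPKM in control, 30.05 in TR1 and 25.78 in TR9, which is 5.61-fold (interval 4.06 to 7.91) and 4.81-fold (3.45 to 6.83) higher than control. Cebpd (chr16:15887286-15891031, plus strand) was at 5.32 FPKM in control, 44.18 in TR1 and 32.38 in TR9, which is 8.30-fold (6.43 to 10.9) and 6.09-fold (4.68 to 8.03) higher. For both genes TR1 had the highest value, and the log2 ratio of TR9 to TR1 was −0.22 (interval −0.50 to 0.05) for Cebpb and −0.45 (−0.64 to −0.26) for Cebpd, neither of which was called. The opposite-strand gene Spidr shares 562 of the 3746 exonic bases of Cebpd (15%) in the GENCODE M21 annotation, and whether the libraries kept strand is not given in the sources used here. Spidr itself had 270, 281 and 362 expected counts in control, TR1 and TR9, with log2 ratios of 0.03 and 0.52 against control that were not called.

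Cebpg, the short family member (chr7:35046422-35056573, minus strand), lies 62719 bases from Cebpa on the same chromosome and followed another course. It was at 13.94 FPKM in control, 8.80 in TR1 and 12.52 in TR9. TR1 had the lowest value, with a log2 ratio to control of −0.66 (interval −0.91 to −0.42), and TR9 was at −0.15 (−0.38 to 0.07). Neither was called.

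The makeup of C/EBP RNA therefore differed between the libraries. Summed FPKM of the 5 genes was 67.43 in control, 236.2 in TR1 and 304.1 in TR9. Cebpg made up 20.7% of that sum in control but 3.73% in TR1 and 4.12% in TR9, and Cebpe made up 15.7%, 29.9% and 29.9%. Cebpa held 47.8% in control and 46.8% in TR9 but 35.0% in TR1, where Cebpd held 18.7% and Cebpb 12.7%. In control these last shares were 7.89% and 7.95%. The ratio of Cebpa to Cebpb within a library, which does not depend on scaling between libraries, was 6.01 in control (interval 4.41 to 8.39), 2.75 in TR1 (2.40 to 3.16) and 5.53 in TR9 (4.77 to 6.43), so the interval of TR1 lay below both others.

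**Figure D2:**
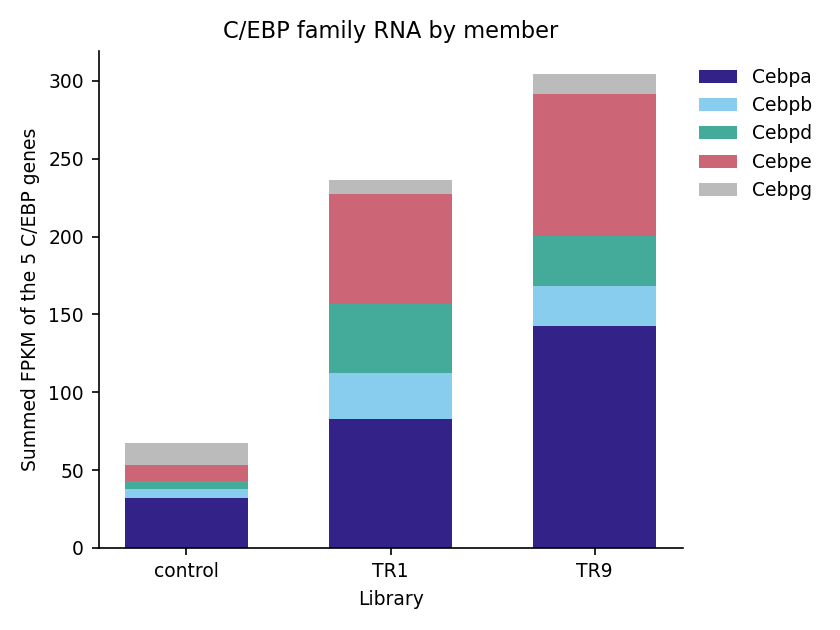
Summed FPKM of the 5 C/EBP genes in each library, stacked by gene. Each bar is 1 library without replicates; the sums are 67.43 in control, 236.2 in TR1 and 304.1 in TR9. Cebpg is 20.7% of the control bar and 3.73% and 4.12% of the others.

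Gfi1, the repressor of the monocyte program (chr5:107716657-107726036, minus strand), had the largest ratio to control of the genes that were higher. It was at 12.92 FPKM in control, 133.38 in TR1 and 184.69 in TR9, from 193, 2002 and 2553 expected counts. That is 10.3-fold higher in TR1 (log2 ratio 3.37, interval 3.15 to 3.59) and 14.3-fold higher in TR9 (3.84, interval 3.63 to 4.06). In control 64.8% of the 16742 genes listed in at least 1 library were below Gfi1, against 97.3% in TR1 and 98.1% in TR9. The log2 ratio of TR9 to TR1 was 0.47 (interval 0.38 to 0.55) and was not called.

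Its paralog Gfi1b, the counterpart of GFI1 in erythroid and megakaryocytic cells, took the opposite course. Its 870 expected counts in control stood beside 0 in TR1 and 1 in TR9. Gfi1b was lower by at least 294-fold in TR1, and the log2 ratio in TR9 was −9.70 (interval −15.01 to −7.22). Erythroid and megakaryocyte markers were low in the same libraries: Pf4 was at 0 in both, and the summed FPKM of 7 megakaryocyte markers was 953.9 in control, 3.65 in TR1 and 2.62 in TR9. Among the 12 genes of the list of the GFI1 paralog and cofactors, 0 were higher in either TR library, 3 were lower in TR1 and 2 were lower in TR9. The corepressor gene Rcor2 had 72, 2 and 6 expected counts, with log2 ratios of −5.17 (−8.24 to −3.26) and −3.50 (−5.0 to −2.31). The other gene lower in TR1 was Rcor1 at −1.32, named after its values were seen, which was at −0.47 in TR9. The median log2 ratio of the list was −0.66 in TR1 and −0.33 in TR9.

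Spi1, which encodes PU.1 (chr2:91082390-91115756, plus strand), was at 59.98 FPKM in control, 99.52 in TR1 and 249.58 in TR9. TR9 was clearly the highest, and Spi1 was the most abundant of the 10 genes there, above 98.6% of the 16742 genes listed in at least 1 library. It was 4.16-fold higher than control in TR9 (log2 ratio 2.06, interval 1.90 to 2.21). In TR1 the log2 ratio was 0.73 (interval 0.56 to 0.91) and was not called. With TMM scaling the log2 ratio in TR1 was 0.97, just under the size required for a call. Compared directly, Spi1 was 2.51-fold higher in TR9 than in TR1 (1.33, interval 1.20 to 1.45, exact Poisson test, FDR 3.12e-102). The ratio of Cebpa to Spi1 was 0.537 in control (interval 0.470 to 0.613), 0.830 in TR1 (0.756 to 0.910) and 0.571 in TR9 (0.535 to 0.610), so the balance of the 2 genes in TR9 was within the interval of control.

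The gene with the pattern most like that of Spi1 among the 118 listed companion genes was Ets1, another ETS factor. Its log2 ratios were 0.82 in TR1 and 2.16 in TR9, and the larger of its differences from Spi1 was 0.11 over the 3 libraries. Of 15 ETS and core binding factor genes, 2 were higher and 1 lower in TR1, and 4 were higher and 2 lower in TR9. Ets2 was higher in both (2.13 and 1.71), as was Erg, a factor of blood stem cells (1.41 and 1.78). Spic, a PU.1 relative of red pulp and marrow macrophages, had 27, 3 and 4 expected counts and was lower in both, at −3.19 (interval −5.56 to −1.49) and −2.66 (−4.64 to −1.14) on the log2 scale. The median of the list was −0.27 in TR1 and 0.41 in TR9.

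Irf8, the factor of monocytes and dendritic cells (chr8:120736358-120756694, plus strand), set the leukemias apart. It was at 67.96 FPKM in control, 2.46 in TR1 and 44.16 in TR9, from 1059, 39 and 644 expected counts. In control it was the most abundant of the 10 genes, whereas in TR1 only Irf4 was below it. Irf8 was 27.6-fold lower in TR1 than in control (log2 ratio −4.79, interval −5.29 to −4.33, exact Poisson test, FDR 2.64e-260). In TR9 the log2 ratio was −0.62 (interval −0.77 to −0.48), which was not called. Irf8 was 18.0-fold higher in TR9 than in TR1 (4.17, interval 3.70 to 4.67, exact Poisson test, FDR 5.84e-151).

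Irf4 (chr13:30749226-30766976, plus strand) was low already in control, at 0.62 FPKM from 16 expected counts. It had 0 counts in both TR libraries, which allows up to 3 counts in each, or 0.538 ppm of the counts in TR1 and 0.585 ppm in TR9. Against that floor Irf4 was lower by at least 5.41-fold in TR1 and at least 4.98-fold in TR9. With a pseudocount of 1 FPKM the log2 ratio was −0.70 in both and the call was lost.

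Dendritic cell markers bear on the IRF genes. Summed FPKM of 10 such markers was 79.68 in control, 100.3 in TR1 and 61.92 in TR9, while 5 of the 10 had 3 counts or fewer in each TR library. Siglech, Cd209a, H2-Aa and H2-Ab1 were at 0 in TR1, and Ccr9 and Cd209a were at 0 in TR9. Nearly all of the sum in TR1 was Bst2 at 60.68 and Flt3 at 38.44 FPKM, and neither is particular to dendritic cells. B cell markers Cd79a, Cd79b and Ms4a1 were at 0 in TR1 and TR9, but of these only Cd79b, from 69 expected counts, was called lower. Cd79a started from 8 in control and Ms4a1 from 3, and neither was called. Igll1, a surrogate light chain gene, went the other way, with 2, 63 and 847 expected counts in control, TR1 and TR9. It was called higher in both leukemias and reached 194.53 FPKM in TR9. The B cell marker Vpreb1 had 1, 14 and 20, and was called higher in TR9 only. The part of these cells in the levels of Irf8 and Irf4 was not tested. Of the 10 other IRF family genes, 1 was higher and 1 lower in TR1, and 3 were higher and 1 lower in TR9. The gene lower in both was Irf5, a factor of inflammatory macrophages, with 76, 14 and 27 expected counts and log2 ratios of −2.45 and −1.39. The median of the list was −0.12 in TR1 and −0.01 in TR9.

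Klf4, a factor of monocyte differentiation (chr4:55527143-55532466, minus strand), was at 6.70 FPKM in control, 2.97 in TR1 and 2.85 in TR9. Its expected counts were 113, 51 and 45, and both TR libraries were below control. Klf4 was 2.26-fold lower in TR1 (log2 ratio −1.17, interval −1.68 to −0.68) and 2.35-fold lower in TR9 (−1.23, interval −1.77 to −0.72). The call in TR1 was close to the limit, and with TMM scaling the log2 ratio was −0.93 and was not called.

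Among 15 other KLF genes, 4 were higher and 3 lower in TR1, and of the 14 tested in TR9, 4 were higher and 2 lower. The erythroid factor Klf1 had 918, 3 and 5 expected counts, which gave a log2 ratio in TR1 of −8.29 (−10.57 to −6.74), and in TR9 of −7.42 (−9.05 to −6.20). Klf2, a quiescence factor of T cells and monocytes, was higher in both (1.5 and 2.76), as was Klf5 (1.75 and 1.89). The median of the list was 0.25 in TR1 and −0.11 in TR9. It was 0.56 and 0.23 when genes with 3 counts or fewer in a library were set to their bound and those at that floor in both were left out.

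**Figure D3:**
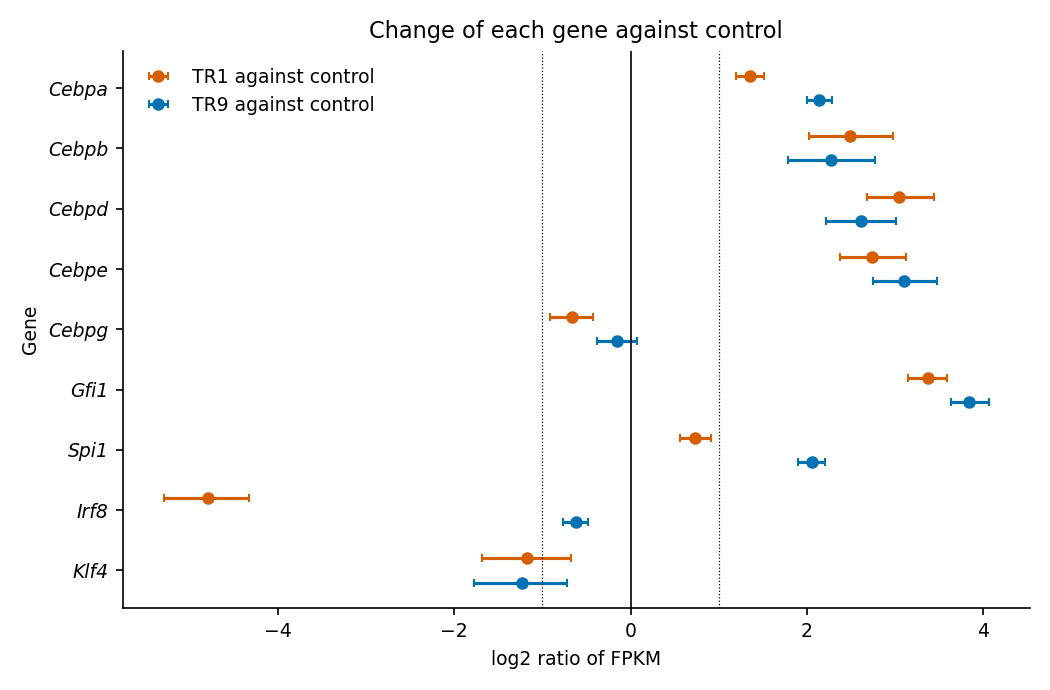
log2 ratio of FPKM of TR1 and of TR9 to control for 9 of the 10 genes. Points are ratios of single libraries, bars are 95% exact intervals from counting error, and dotted lines mark the size required for a call. Irf4 is left out because it had 0 counts in TR1 and TR9; Irf8 lies at −4.79 in TR1 and −0.62 in TR9, and Spi1 at 0.73 and 2.06.

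The order of the levels differed by library. In control it ran from Irf8 through Spi1 and Cebpa to Cebpg, Gfi1, Cebpe, Klf4, Cebpb, Cebpd and Irf4. Intervals of the ratio included 1 between Cebpg and Gfi1, between Gfi1 and Cebpe, between Klf4 and Cebpb and between Cebpb and Cebpd, so these neighbours did not differ beyond counting error. In TR1 the order was Gfi1, Spi1, Cebpa, Cebpe, Cebpd, Cebpb, Cebpg, Klf4, Irf8 and Irf4, and among the 9 genes with counts the interval of neighbours included 1 for Klf4 and Irf8 alone. In TR9 it was Spi1, Gfi1, Cebpa, Cebpe, Irf8, Cebpd, Cebpb, Cebpg, Klf4 and Irf4, and every pair of neighbours with counts differed beyond counting error.

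Ratios between genes within a library put Gfi1, Cebpe and Spi1 against Irf8. The ratio of Gfi1 to Irf8 was 0.190 in control (interval 0.162 to 0.222), 54.2 in TR1 (39.5 to 76.5) and 4.18 in TR9 (3.83 to 4.57). It was thus 285-fold higher in TR1 and 22.0-fold higher in TR9 than in control. The ratio of Cebpe to Irf8 was 0.156 in control, 28.7 in TR1 and 2.06 in TR9, whereas that of Spi1 to Irf8 was 0.883, 40.5 and 5.65. For all 3 ratios the control was below 1, both TR libraries were above 1, and the intervals of the libraries did not overlap. The ratio of Irf8 to Irf4 was 110 in control (67.2 to 192) and had no value in TR1 or TR9, where Irf4 had no counts.

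**Figure D4:**
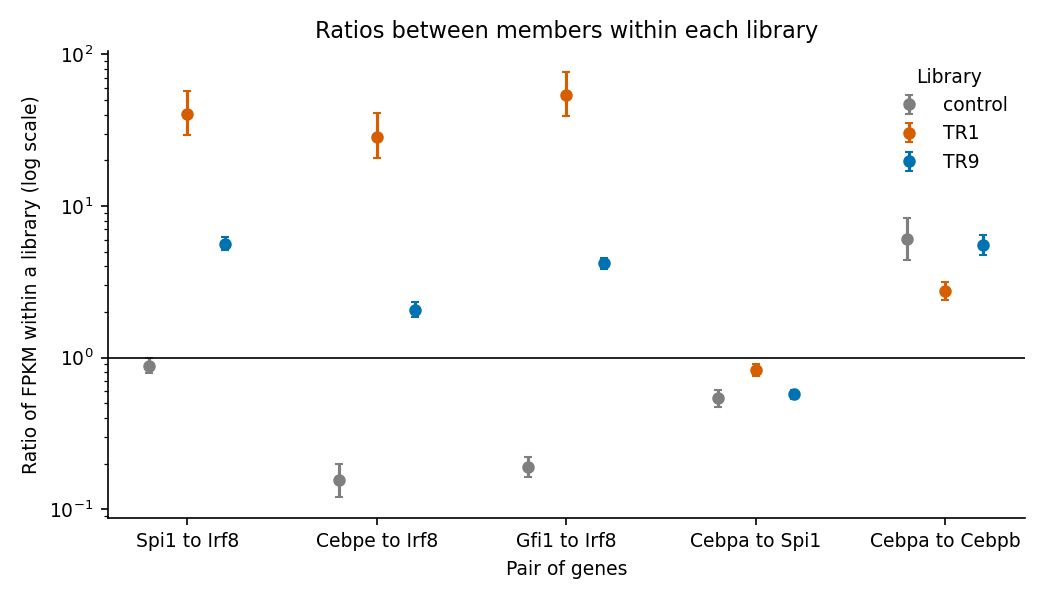
Ratio of FPKM between 2 genes within each library (log axis), for 5 pairs, with 95% exact intervals from the counts of both genes and a line at 1. The 3 ratios to Irf8 order the libraries as control, TR9 and TR1, from 0.190 through 4.18 to 54.2 for Gfi1.

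Compared directly, TR9 and TR1 differed in 2 of the 9 genes tested, Spi1 and Irf8, both higher in TR9, and 0 were lower. Of all 15706 genes tested, 4.34% were higher and 2.31% lower in TR9. The median log2 ratio of the 9 genes was 0.47, beside 0.13 over all genes. Other genes also differed between these libraries. The 11 neutrophil markers included 1 higher and 5 lower in TR9, Itgam (CD11b) was at 34.91 FPKM in TR1 and 8.21 in TR9, and Kit was at 29.13 and 62.55. Their part in the difference was not tested.

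When TR1 and TR9 were taken as 2 samples against the lone control, which is then assumed to vary as they do, edgeR's quasi-likelihood test called 2 of the 10 genes at an FDR of at most 0.05. These were Gfi1 (log2 difference 3.77, FDR 0.0455) and Cebpe (3.10, FDR 0.0470), both higher. Of 12647 genes, 0.727% were called higher and 1.22% lower by this test, which has 1 residual degree of freedom. Cebpd (3.04, FDR 0.0709), Cebpb (2.56, FDR 0.0711) and Cebpa (1.97, FDR 0.112) were higher in both libraries but did not pass. Irf8 was at −1.42 with an FDR of 0.610, Klf4 at −1.02 with an FDR of 0.229 and Spi1 at 1.69 with an FDR of 0.223. edgeR's exact test was instead run on pairs of libraries with the biological coefficient of variation set at 0.4. Its calls kept the FDR of at most 0.001, which is stricter than the 0.05 above. At that limit the lower level of Irf8 in TR1 was the single call left among the 10 genes. Others of the 10 genes, Gfi1 among them, had an FDR between these 2 limits. Of the 118 listed companion genes, this test left 4 lower and 10 higher in TR1, and 4 lower and 10 higher in TR9. The share of all genes that it called is not given here.

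Trib1 and Trib2, which encode pseudokinases that lead C/EBPα to degradation, differed from control in opposite directions. Trib1 had 5, 147 and 333 expected counts in control, TR1 and TR9. Its log2 ratio was 4.88 in TR1 (interval 3.63 to 6.53) and 6.18 in TR9 (interval 4.95 to 7.82), and 1.30 for TR9 to TR1 (1.02 to 1.59, called higher). Trib2 had 186, 0 and 2 expected counts, was lower by at least 62.9-fold in TR1, and stood at −6.48 on the log2 scale in TR9 (interval −9.53 to −4.60). Id1, an inhibitor of helix-loop-helix factors, was higher in both (3.92 and 3.72). Of the 14 listed C/EBP partners and regulators, 6 were higher and 1 lower in TR1, and 6 were higher and 2 lower in TR9. The median of the list was 1.34 in TR1 and 1.25 in TR9, or 0.99 and 1.08 with genes at the floor set to their bound.

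Granulocyte output genes, which encode granule proteins, proteases and receptors of neutrophils, were nearly all higher. Of 20, 19 were higher in TR1 and 16 in TR9, and 0 were lower, and the list had its median at 3.28 in TR1 and 3.24 in TR9. Chil3, a chitinase-like protein gene, was at 5.39 FPKM in control, 5780.02 in TR1 and 504.31 in TR9. Camp, which encodes cathelicidin, was at 2.87, 364.38 and 1647.31 FPKM, and the neutrophil surface gene Cd177 at 0.53, 104.92 and 103.48. Elane, the neutrophil elastase gene, had log2 ratios of 3.39 and 3.93, the closest of the companion genes to those of Gfi1 (within 0.09). Lyz2 (2.97 and 2.44) was the closest to Cebpd (within 0.17), and Klf11 (−0.65 and −0.16) was the closest to Cebpg (within 0.02). For Cebpa, Cebpb, Cebpe and Irf8 the nearest gene differed by more than 0.25. Compared directly, 8 of the 20 granulocyte output genes were lower in TR9 than in TR1 and 2 were higher.

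Monocyte output genes did not move one way. Of 18, 8 were higher and 5 lower in TR1, and 5 were higher and 5 lower in TR9, with medians of 1.03 and 0.26. Ly6c2, which encodes the Ly6C antigen carried by inflammatory monocytes and by early granulocytic cells, was at 499.63 FPKM in control, 5592.91 in TR1 and 6295.68 in TR9. Ms4a6d was higher in both (3.93 and 2.19), and the mannose receptor gene Mrc1 was lower in both (−2.63 and −2.41). The receptor gene Csf1r, named after its values were seen, had 510, 141 and 81 expected counts and was lower in both (−1.88 and −2.56). Of the 9 macrophage markers, 2 were higher and 7 lower in TR1, and 1 was higher and 7 lower in TR9, with medians of −3.52 and −3.17. Their summed FPKM was 100.8 in control and 179.8 and 303.3 in TR1 and TR9, where Vcam1 alone was at 164.41 and 291.13, up from 25.11. Adgre1 had 46, 218 and 71 expected counts and was called higher in TR1, whereas C1qa, C1qb and C1qc had 86 to 104 in control and 0 to 8 in the TR libraries. The part of macrophages in these genes was not tested. In TR9 against TR1, 6 of the 18 genes were lower and 0 were higher.

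Of 14 regulators of monocytes and dendritic cells, 2 were higher and 5 lower in TR1, and 4 were higher and 2 lower in TR9. Egr1, an early gene that favours macrophages, was at 3.90 FPKM in control, 40.19 in TR1 and 86.05 in TR9. Egr1 had log2 ratios of 3.37 (TR1, interval 3.0 to 3.75) and 4.46 (TR9, interval 4.11 to 4.84). Bcl6, a repressor, was higher in both (3.52 and 2.64). Zbtb46, a factor of classical dendritic cells, went from 87 expected counts in control to 0 in TR1 and in TR9, lower by at least 29.4-fold and 27.1-fold. The median of the list was −0.67 in TR1 and 0.30 in TR9. Compared directly, TR9 exceeded TR1 in 4 of the 13 regulators tested and was lower in 0. Named after their values were seen, these were Egr1, Zeb2, Tcf4 and Ahr, with log2 ratios of 1.10, 1.30, 1.21 and 2.08. No companion gene was called in opposite directions in TR1 and TR9. The marker gene Flt3, named after its values were seen, was called higher in TR1 (1.25) and lower in TR9 (−1.28).

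**Figure D5:**
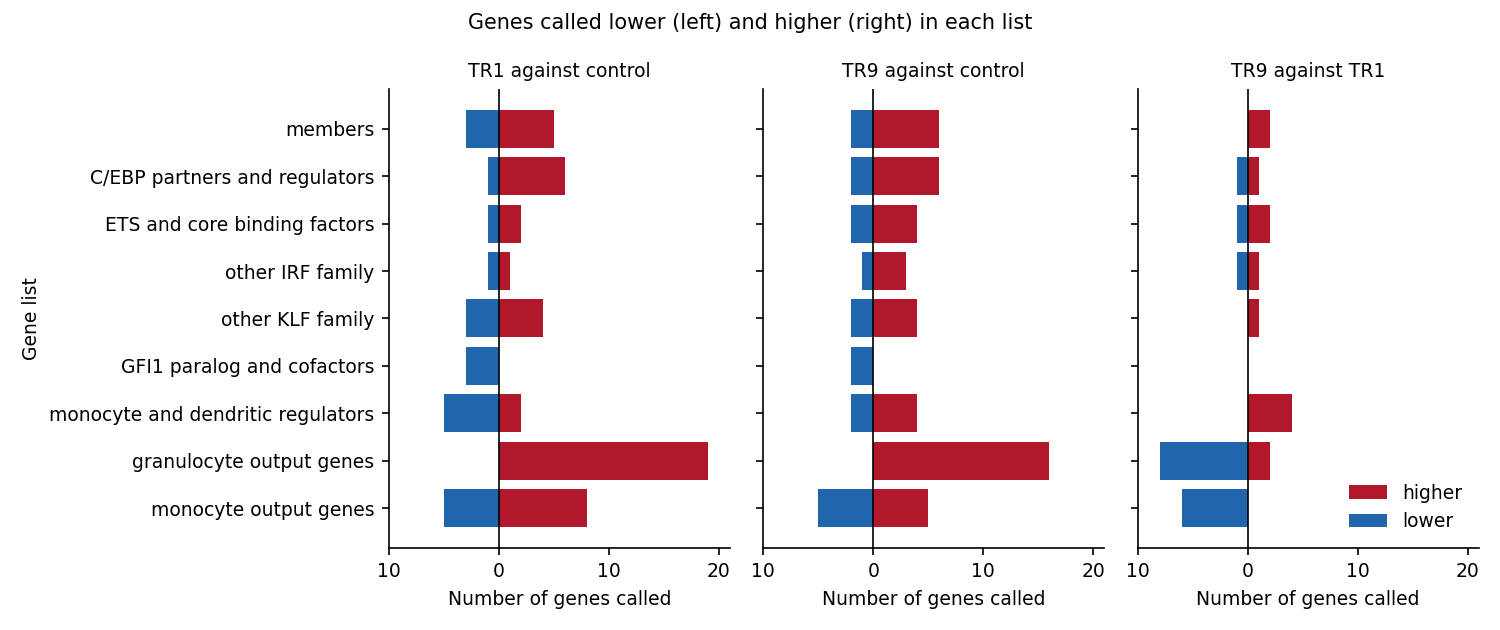
Number of genes called lower (left of 0) and higher (right of 0) in the 10 genes and in 8 companion lists, for TR1 against control, TR9 against control and TR9 against TR1. Granulocyte output genes were called higher in 19 of 20 cases in TR1 and 16 of 20 in TR9, and the first 2 panels share the control library.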

How the data were processed

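RNA-seq was analysed in 3 libraries, grouped by the sample labels. The authors filtered the reads, mapped them and quantified genes with RSEM. The submitters' processing notes name BWA, Bowtie, RSEM and the build mm9, with no versions. For each library the authors deposited the expected count per gene, not normalized, and the FPKM, scaled by RSEM for length and library total. The deposited files hold no coordinates, so those given are from GENCODE M21 (GRCm38), and names come from RefSeq, which matched 16698 of 16742 gene IDs. Counts were rounded, since 19.9% to 21.2% of them were not whole.

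Pairs of libraries were compared with the conditional exact Poisson test in scipy 1.17.1, adjusted by Benjamini-Hochberg, after the method and thresholds of the study, with FPKM under 0.01 set to 0.01. No replicates exist within a group, so edgeR's quasi-likelihood test (edgeR 4.0.16, R 4.3.3) was an alternative, with TMM, DESeq2 1.42.0 size factors, a pseudocount of 1 FPKM, a minimum of 10 counts, an exact test in edgeR with the biological coefficient of variation set at 0.4, a log2 ratio of 2 or more in size, and counts in place of FPKM for ratios. Intervals are 95% Clopper-Pearson. A fold against 0 counts was computed against 3 counts. The Poisson test and its calls were tested on simulated Poisson counts, which hold no variation between mice.

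The genes described and the 8 companion lists (119 genes, 118 listed) were chosen with earlier results of these data known. Named genes were all 10 genes, up to 3 genes per companion list with the largest mean log2 ratio in size among genes called alike in TR1 and TR9 with at least 20 counts in a library, companion genes called in opposite directions, and for each of the 10 genes the companion gene whose log2 ratios differed least, if by at most 0.25. Tables were handled in pandas 2.3.3 under Python 3.11.15 with numpy 2.4.6, and plots drawn in matplotlib 3.10.9. One companion gene and one B cell marker are not reported here.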

Additional observations from a re-analysis of the deposited data

Results flagged for a closer look

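The effects in the 2 leukemias differed for Spi1 and Irf8 when TR9 was compared directly with TR1 by the exact Poisson test. The log2 ratio was 1.33 for Spi1 and 4.17 for Irf8. Both rest on 1 library per leukemia, so the spread between mice is not in the test.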

How the results depend on the processing

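Over the 3 comparisons, the direction of every log2 ratio of the 10 genes was the same under each alternative run. TMM, the median of ratios and a minimum of 10 counts left each count of called genes within 1.5 times, although Klf4 lost its call in TR1 under TMM and the median of ratios (−0.93 each) and with a pseudocount of 1 FPKM (−0.96). That pseudocount left 1 of the 10 genes lower in TR1 (from 3) and 1 lower in TR9 (from 2). An absolute log2 ratio of at least 2 left 1 lower in TR9 and 1 higher in TR9 against TR1 (from 2). The quasi-likelihood test left 2 higher (from 5 in TR1 and 6 in TR9) and 0 lower, and it called 246 genes in all, with 3043 at an unadjusted p under 0.05. edgeR's exact test with an assumed coefficient of variation of 0.4 was read at an FDR of at most 0.001, not 0.05. It left 1 lower in TR1, which was Irf8, and 0 lower in TR9, 0 higher in TR1, 0 higher in TR9 and 0 higher in TR9 against TR1. Among companion genes this test left 4 lower in TR1 (from 19), 10 higher in TR1 (from 42), 4 lower in TR9 (from 16), 10 higher in TR9 (from 42), and 0 lower and 0 higher in TR9 against TR1 (from 17 and 11). The larger fold left 11 lower in TR1, 9 lower and 25 higher in TR9, and 5 lower and 3 higher in TR9 against TR1. The ratios within a library moved little with counts in place of FPKM. No paired analysis was possible because each group has 1 library.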
